A study of Mus musculus with 9 samples.

Results

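The interferon regulatory factors (Irf genes) were followed in 3 dendritic cell (DC) subsets of the mouse spleen, as the rows of a count table whose gene name is Irf1 to Irf9. That rule finds 9 genes among the 39179 listed, of which 8 are reported: Irf1, Irf2, Irf3, Irf4, Irf5, Irf7, Irf8 and Irf9. The libraries come from wild-type C57BL/6J mice at steady state, with nothing given to them, and the study's methods put its mice at 6 to 12 weeks of age. Spleen cells of light density were depleted of cells bearing antigens of other lineages, such as CD3, Thy-1 and Ly6G/Ly6C, and then sorted. The conventional DC1 (cDC1) were CD11c-high, CD317-low, CD8+ and CD11b-, the conventional DC2 (cDC2) were CD11c-high, CD317-low, CD8- and CD11b+, and the plasmacytoid DC (pDC) were CD11c-intermediate, CD317-high and CD11b-. Each subset has 3 libraries, each from the pooled spleens of 15 to 17 mice, so no value belongs to a single animal. The same replicate number carries the same date code in all 3 subsets, and same-numbered libraries are called a sort below. Poly(A) RNA was read by stranded sequencing over 75 bases from one end, and the table holds raw read counts per gene.

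Irf proteins share a helix-turn-helix domain that binds GAAA repeats, which lie in the promoters of interferon genes and of the genes that interferon induces. Irf3, Irf5 and Irf7 are held in the cytoplasm until kinases downstream of nucleic acid sensors phosphorylate them, Irf9 works with Stat2 behind the interferon receptor, and Irf1 and Irf2 compete for overlapping sites. Irf4 and Irf8 form a closely related pair that binds DNA weakly alone and strongly with partners such as PU.1 or Batf family proteins, and both are known for their parts in DC development, Irf8 in cDC1 and pDC and Irf4 in cDC2.

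Counts on genes summed to between 15806597 and 32453789 per library, so that 3 counts, taken as the floor, amount to between 0.0924 and 0.19 counts per 1000000 (CPM), which covers counting error only. Levels below are CPM after scaling by edgeR's TMM factors, as mean ± SD over n = 3 libraries. Libraries of the same subset were no repeats of each other (chi-square over degrees of freedom of 10.6 to 67.7). Marker transcripts tracked the sort gates. The 5 pDC markers summed to between 9516 and 10687 CPM in pDC and to between 138 and 211 in the cDC subsets, and the 6 cDC1 markers to between 3806 and 4239 CPM in cDC1 and between 143 and 698 elsewhere. The cDC2 markers did not set cDC2 apart from pDC as a sum. Sirpa was present in both, and Cd4 was higher in pDC (1369 ± 73.1 CPM) than in cDC2 (399 ± 20.1 CPM). Itgam (CD11b) was at 235 ± 13.5 CPM in cDC2 against 11.6 ± 4.16 in cDC1 and 11.3 ± 4 in pDC. The third sort stood apart. The median of 10 immediate-early and heat-shock genes was 1.41 higher there on the log2 scale in cDC1, 0.93 in cDC2 and 1.5 in pDC than the mean of the other sorts. The level of a transcript in a bulk library cannot tell fewer cells that carry it from less of it per cell.

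The Irf genes were compared between subsets in one edgeR quasi-likelihood fit over all 9 libraries and the 13819 genes with enough counts, with Benjamini-Hochberg adjustment of the p-values over this whole set; a gene is said to pass at an adjusted p under 0.05. Each of the 8 Irf genes had enough counts to be tested. The data show a family in which a few members differ widely between subsets and the rest barely. Irf8 and Irf7 were highest in pDC, Irf4 was high in cDC2 and pDC and low in cDC1, and Irf5 was highest in cDC1. Irf1 was higher in pDC than in both cDC subsets. Irf2, Irf3 and Irf9 each differed by at most 1.23-fold between any pair of subsets. Between pDC and cDC1, 6 of the 8 genes passed, 5 of them higher in pDC and 1 lower, against 48.6% of all genes tested (24.3% higher and 24.4% lower). Between pDC and cDC2, 4 passed, 3 higher in pDC and 1 lower, against 45.8% of all genes (22.5% higher and 23.3% lower). Between cDC2 and cDC1, 3 passed, 1 higher in cDC2 and 2 lower, against 24.4% of all genes (12.7% higher and 11.7% lower). A test of any difference among the 3 subsets called 5 of the 8, against 56% of all genes. Changes of at least 2-fold, a log2 fold change of at least 1 in size, were then required as well. With them 3 of the 8 remained between pDC and cDC1, 2 between pDC and cDC2 and 2 between cDC2 and cDC1. The calls over all genes under this rule were not counted, so these numbers say nothing of the family against other genes.

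**Figure D1:**
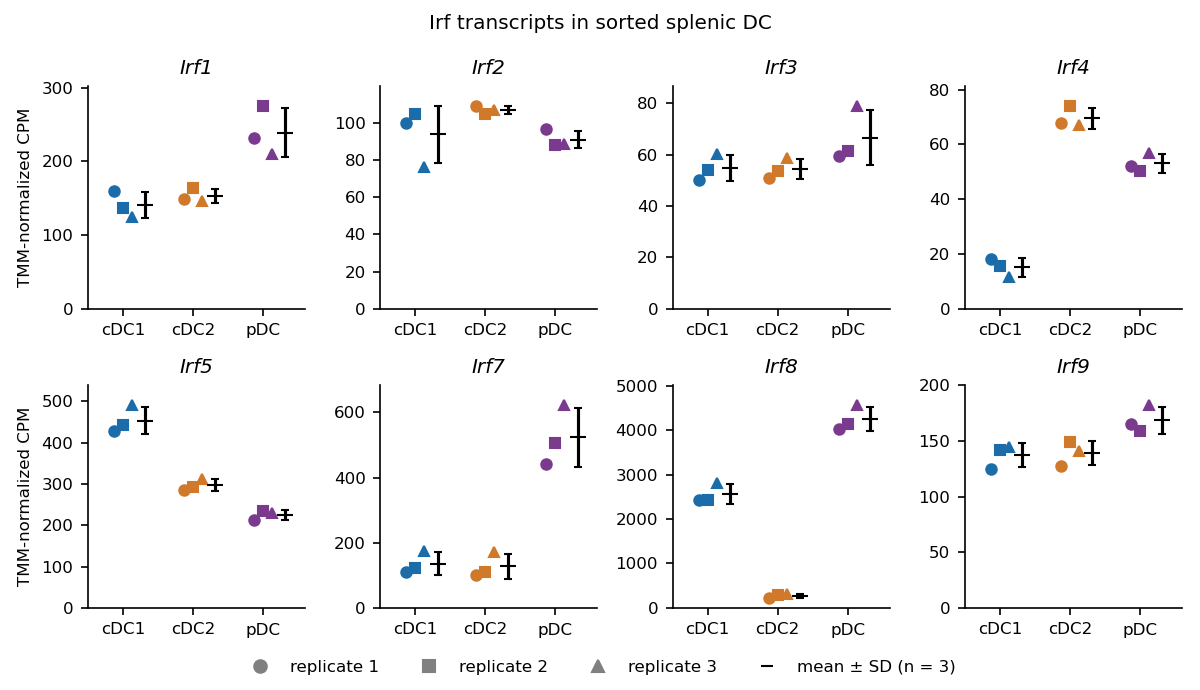
Level of each Irf gene (TMM-normalized CPM, linear axis from 0, a scale of its own per gene) in each library, with colours for the subsets and symbols for the replicate number, and the mean ± SD of 3 libraries in black. Irf8 stands at 4032 to 4553 CPM in pDC and 216 to 309 in cDC2, and Irf4 at 11.4 to 18 in cDC1 and 67.1 to 73.9 in cDC2.

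Irf8 (ENSMUSG00000041515; chr8:120736358-120756694, plus strand, GRCm38 in the GENCODE M21 annotation; 9 exons in its principal mRNA) had more counts than any other member in cDC1 and pDC. It is required for cDC1 to form and is a constant feature of pDC. Its level was 2422, 2435 and 2811 CPM in cDC1 replicates 1, 2 and 3, 216, 283 and 309 CPM in cDC2, and 4032, 4146 and 4553 CPM in pDC. The 3 subsets did not overlap, pDC was highest and cDC2 lowest in every sort, and the third sort was the highest of its subset each time. The mean in pDC was 15.8-fold that in cDC2 (log2 fold change 3.98, SE 0.149, edgeR adjusted p = 8.85e-08) and 1.66-fold that in cDC1 (0.73, SE 0.132, edgeR adjusted p = 0.00127). Irf8 in cDC2 was 9.49-fold under cDC1 (-3.25, SE 0.144, edgeR adjusted p = 1.06e-06), and at 269 ± 48 CPM it was still far above the floor.

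Irf4 (ENSMUSG00000021356; chr13:30749226-30766976, plus strand; 9 exons) followed another order. It is known from cDC2, where it is needed for their migration to lymph nodes, and from plasma cells. Its level was 18, 15.7 and 11.4 CPM in cDC1, 67.6, 73.9 and 67.1 CPM in cDC2, and 52.2, 50.1 and 56.9 CPM in pDC, the lowest value resting on 168 reads. Every cDC2 library was above every pDC library and these above every cDC1 library. Irf4 was 4.61-fold higher in cDC2 than in cDC1 (log2 fold change 2.20, SE 0.163, edgeR adjusted p = 1.36e-05) and 3.52-fold higher in pDC than in cDC1 (1.82, SE 0.162, edgeR adjusted p = 1.05e-05). The step from cDC2 to pDC was small (-0.39, SE 0.155) and missed the threshold (edgeR adjusted p = 0.0653). It passed in 6 of 19 alternatives, at log2 fold changes of -0.47 to -0.39. These were the edgeR fit with the sort as a block (adjusted p = 0.0395), DESeq2 (adjusted p = 0.0446), limma-voom (adjusted p = 0.0202), the fit of only the 6 libraries compared (adjusted p = 0.0205), the fit without the third sort (adjusted p = 0.00488) and the fit without cDC1 replicate 3 (adjusted p = 0.0127). Irf4 is also a plasma cell gene, and the 5 plasma cell markers summed to between 268 and 509 CPM in pDC, 27.5 and 35.7 in cDC2 and 15.1 and 18.8 in cDC1, most of it from Jchain, the joining chain of secreted antibody. Jchain was at 338 ± 120 CPM in pDC, 22.1 ± 4.92 in cDC2 and 10.6 ± 1.28 in cDC1, and Sdc1, which encodes CD138, at 47.1 ± 2.73, 1.12 ± 0.731 and 0.406 ± 0.121 in the same order. Prdm1, which encodes Blimp-1, was highest in cDC2, at 6.49 ± 0.409 CPM against 0.513 ± 0.244 in pDC and 0.75 ± 0.257 in cDC1, and passed there against both. Derl3 was at 4.51 ± 1.65 CPM in pDC, 1.14 ± 0.303 in cDC2 and 5.19 ± 3.02 in cDC1, and Tnfrsf17 at 0.56 ± 0.584, 0.0796 ± 0.0886 and 0.0139 ± 0.0241, too few counts to be tested. The part of such cells in the Irf4 counts was not tested.

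The start regions of Irf8 and Irf4 are shown because this pair had opposite orders in cDC1 and cDC2. Those of Irf7 and Irf1 are shown because they, like Irf8, passed as higher in pDC than in both cDC subsets. Each is the 250 bases before a RefSeq start site on GRCm38.p6, read 5′ to 3′ along the gene, in lower case with capitals for matches to any of the motifs searched.
Irf8, chr8:120736108-120736357, plus strand: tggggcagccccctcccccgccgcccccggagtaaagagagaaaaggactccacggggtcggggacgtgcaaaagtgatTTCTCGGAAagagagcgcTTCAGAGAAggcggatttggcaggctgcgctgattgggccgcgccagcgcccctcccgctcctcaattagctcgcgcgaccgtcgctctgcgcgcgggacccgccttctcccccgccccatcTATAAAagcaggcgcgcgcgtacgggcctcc
Irf4, chr13:30748983-30749232, plus strand: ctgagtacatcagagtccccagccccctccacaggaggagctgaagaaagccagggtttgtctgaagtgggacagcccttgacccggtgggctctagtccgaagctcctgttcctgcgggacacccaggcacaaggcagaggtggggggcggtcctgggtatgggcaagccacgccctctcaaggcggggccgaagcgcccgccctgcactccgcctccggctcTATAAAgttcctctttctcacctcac
Irf7, chr7:141266425-141266674, minus strand: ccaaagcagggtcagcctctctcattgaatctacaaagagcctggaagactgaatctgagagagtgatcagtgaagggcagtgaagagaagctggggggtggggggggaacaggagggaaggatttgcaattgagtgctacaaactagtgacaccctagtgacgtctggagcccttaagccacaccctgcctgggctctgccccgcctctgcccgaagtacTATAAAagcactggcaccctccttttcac
Irf1, chr11:53769764-53770013, plus strand: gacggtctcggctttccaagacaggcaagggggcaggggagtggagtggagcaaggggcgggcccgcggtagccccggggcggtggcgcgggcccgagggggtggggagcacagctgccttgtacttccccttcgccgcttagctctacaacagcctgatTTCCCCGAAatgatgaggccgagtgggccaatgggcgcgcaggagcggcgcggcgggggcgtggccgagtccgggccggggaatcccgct
The motifs were searched on both strands from 250 bases before to 50 after each start. All 8 genes have such a window, 11 in all, since Irf1, Irf8 and Irf9 have a pair of starts each. The GAS element TTCNNNGAA, a site of interferon-γ response, is in the windows of Irf1, Irf2 and Irf8, with 2 matches in Irf8, and in 8.3% of all 32851 windows and 6.91% of the 11949 windows of genes that were tested. The TATA box TATAAA is in those of Irf4, Irf7 and Irf8, between 21 and 31 bases before the start, and in 13.6% of all windows and 7% of those of tested genes. The core of the interferon-stimulated response element, a pair of GAAA sites 2 bases apart, is in the window of Irf2 alone among the 8 genes and in 3.44% of all and 3.23% of tested windows, and the composite site of ETS factors and Irf4 or Irf8, GGAA and GAAA 2 bases apart, overlaps it there and is in 2.72% of all and 2.49% of tested windows. The AP-1 site TGANTCA and the PU.1 site GAGGAAGT were not found in these windows and are in 7.81% and 3.2% of all and in 5.2% and 3.51% of tested windows. A match is a description of the letters and not of binding, and no binding was measured here.

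The balance of Irf8 against Irf4 was then read within each library, where it needs no scaling between libraries. Per kilobase of annotated exons, Irf8 was 93.7, 108 and 172 times Irf4 in cDC1 replicates 1, 2 and 3, 2.22, 2.66 and 3.2 times in cDC2, and 53.7, 57.5 and 55.6 times in pDC. Irf8 exceeded Irf4 in every library, cDC2 included. The mean log2 ratio was 6.91 ± 0.46 in cDC1, 5.80 ± 0.05 in pDC and 1.41 ± 0.26 in cDC2 (SD, n = 3), and no ranges overlapped. The 3 cDC1 libraries spread more than the pDC libraries, with replicate 3 the farthest, which is also where Irf4 was lowest. An exact permutation test over all 1680 arrangements of the 9 libraries gave p = 0.00357 (two-sided), the smallest this design can give. That test exchanges libraries across sorts. With exchange only within each sort, an exact permutation test over 216 arrangements gave p = 0.0278, again the smallest possible. Each pair of subsets gave the smallest exact permutation p that 3 against 3 libraries allow, 0.1 (0.1 adjusted over the 3 pairs), for differences in the mean log2 ratio of -1.11 between pDC and cDC1, 4.38 between pDC and cDC2 and -5.50 between cDC2 and cDC1. The size of the ratio depends on the lengths: with the principal mRNA of each gene the mean log2 ratio was 8.18 in cDC1, 7.06 in pDC and 2.68 in cDC2. That is 1.27 higher in every library, so the differences between subsets and the tests are the same.

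**Figure D2:**
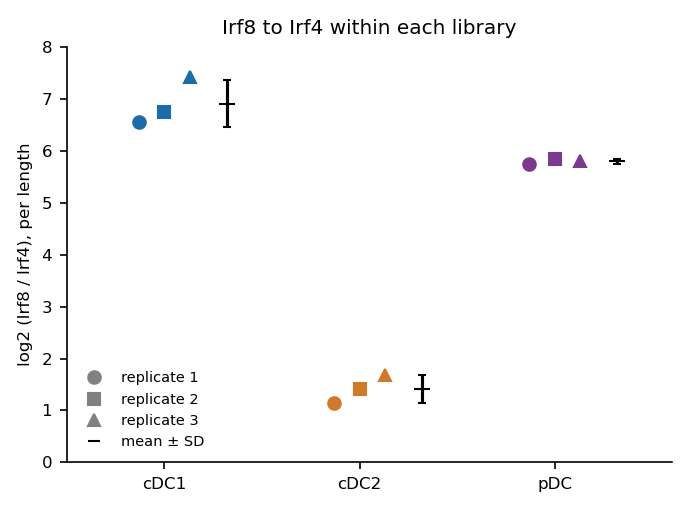
Log2 of the ratio of Irf8 to Irf4, both per length of exons, in each library (symbols by replicate number), with the mean ± SD of 3 libraries per subset in black. The cDC2 libraries lie between 1.15 and 1.68, pDC between 5.75 and 5.85 and cDC1 between 6.55 and 7.42.

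Irf5 (ENSMUSG00000029771; chr6:29526625-29541871, plus strand; 9 exons) acts behind MyD88 in the induction of inflammatory cytokines and was the member that fell from cDC1 through cDC2 to pDC. Its level was 428, 442 and 490 CPM in cDC1, 285, 293 and 313 in cDC2 and 212, 235 and 229 in pDC. The subsets did not overlap, and the order cDC1, cDC2, pDC held in every sort. Irf5 was 2.01-fold lower in pDC than in cDC1 (log2 fold change -1.01, SE 0.094, edgeR adjusted p = 1.42e-05), 1.32-fold lower in pDC than in cDC2 (-0.40, SE 0.093, edgeR adjusted p = 0.00569) and 1.52-fold lower in cDC2 than in cDC1 (-0.61, SE 0.093, edgeR adjusted p = 0.00105). Its exons overlap those of Tnpo3 on the other strand over 14.1% of their bases, and the strand setting of the counting is not given in the sources used here. Such overlaps cover 3.4% of Irf1 (by Gm17334), 2.56% of Irf3 (by Bcl2l12) and 1.19% of Irf7 (by Phrf1). Macrophages carry Irf5 too, and the 7 macrophage and monocyte markers summed to between 103 and 169 CPM in cDC1, where Irf5 was highest. The sums were 440 to 626 in cDC2 and 1980 to 2858 in pDC. Single genes made up most of these, Adgre1 (344 ± 41.7 CPM) in cDC2 and Ly6c2 (2226 ± 424 CPM) in pDC. Of the 7, 2 (Adgre1 and Spic) passed in cDC2 over both other subsets, 1 (Ly6c2) in pDC and 0 in cDC1. That is 28.6%, 14.3% and 0% of the markers, beside 6.53%, 17.2% and 7.14% of all genes tested. The part of such cells in the Irf5 counts was not tested.

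Irf7 (ENSMUSG00000025498; chr7:141262706-141266481, minus strand; 10 exons), the factor on which most interferon-α induction depends, set pDC apart from both cDC subsets. Its level was 442, 506 and 621 CPM in pDC, 111, 121 and 176 in cDC1 and 100, 111 and 172 in cDC2. All pDC libraries were above all cDC libraries, and cDC1 and cDC2 overlapped. Irf7 was 3.84-fold higher in pDC than in cDC1 (log2 fold change 1.94, SE 0.247, edgeR adjusted p = 0.000124) and 4.1-fold higher than in cDC2 (2.03, SE 0.247, edgeR adjusted p = 0.000101), while cDC2 and cDC1 differed by -0.09 (SE 0.239, edgeR adjusted p = 0.836). Of the 8 genes it moved most with the sort. The third sort was above the mean of the others by 0.59 on the log2 scale for cDC1, by 0.70 for cDC2 and by 0.39 for pDC, as were the immediate-early genes given above, whose part in this was not tested. The differences within a sort were steady: pDC exceeded cDC1 by 1.99, 2.06 and 1.82 in sorts 1, 2 and 3, and cDC2 by 2.14, 2.19 and 1.85.

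Irf9 (ENSMUSG00000002325; chr14:55603571-55610030, plus strand; 9 exons), the DNA-binding subunit of the complex that answers type I interferon, was near even. Its level was 125, 142 and 145 CPM in cDC1, 128, 149 and 141 in cDC2 and 165, 159 and 182 in pDC. The pDC libraries were above all others by a narrow margin. Irf9 was 1.23-fold higher in pDC than in cDC1 (log2 fold change 0.30, SE 0.106, edgeR adjusted p = 0.0421), a call that was lost when any 1 of the 9 libraries was left out, with values between 0.23 and 0.32, and that 5 of 19 alternatives kept. It did not pass against cDC2 (0.28, SE 0.106, edgeR adjusted p = 0.0571), except with the sort as a block (adjusted p = 0.0108), with DESeq2 (adjusted p = 0.0456) or with limma-voom (adjusted p = 0.0432). Its partner Stat2 averaged 202 ± 70.3 CPM over the pDC libraries, 105 ± 26.2 over cDC2 and 70.8 ± 15.5 over cDC1. Stat2 passed in pDC against cDC1 (2.85-fold, edgeR adjusted p = 0.00159) and against cDC2 (1.93-fold, edgeR adjusted p = 0.0192) but not in cDC2 against cDC1 (1.48-fold, edgeR adjusted p = 0.191). For Stat2, pDC replicate 3 and cDC2 replicate 2 were level at 131 CPM. Irf9 shares 49 of its 5736 windows of 75 bases, 0.854%, with the neighbouring Rnf31, whose exons overlap 2.28% of its own on the same strand.

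Irf1 (ENSMUSG00000018899; chr11:53770014-53778374, plus strand; 10 exons), which interferon-γ induces and which drives MHC class I genes, stood at 160, 137 and 125 CPM in cDC1, 149, 164 and 146 in cDC2 and 232, 275 and 210 in pDC. Every pDC library was above every cDC library, and cDC1 and cDC2 overlapped. Irf1 was 1.7-fold higher in pDC than in cDC1 (log2 fold change 0.76, SE 0.132, edgeR adjusted p = 0.000937) and 1.57-fold higher than in cDC2 (0.65, SE 0.132, edgeR adjusted p = 0.00273), with 0.12 between cDC2 and cDC1 (SE 0.131, edgeR adjusted p = 0.594). Its antagonist Irf2 (ENSMUSG00000031627; chr8:46739732-46847458, plus strand; 9 exons), which occupies the same elements without inducing most of them, passed in no comparison. Irf2 stood at 100, 105 and 76.5 CPM in cDC1, 109, 105 and 107 in cDC2 and 96.6, 88 and 88.6 in pDC. The pDC libraries lay under all cDC2 libraries and among the cDC1 libraries, and the log2 fold changes were -0.05 in pDC against cDC1 (SE 0.126, edgeR adjusted p = 0.788), -0.23 against cDC2 (SE 0.126, edgeR adjusted p = 0.169) and 0.18 in cDC2 against cDC1 (SE 0.126, edgeR adjusted p = 0.357).

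Irf3 (ENSMUSG00000003184; chr7:44997648-45002848, plus strand; 8 exons), the constitutive factor that Tbk1 phosphorylates behind STING, MAVS and TRIF, was level between the cDC subsets. It stood at 50.2, 53.9 and 60.2 CPM in cDC1, 51, 53.4 and 58.8 in cDC2 and 59.4, 61.4 and 78.8 in pDC. The pDC libraries overlapped those of cDC1 and lay just above those of cDC2. In every sort pDC was higher than both, but by little: the log2 fold change was 0.28 against cDC1 (SE 0.136, edgeR adjusted p = 0.117) and 0.29 against cDC2 (SE 0.136, edgeR adjusted p = 0.109), and -0.01 in cDC2 against cDC1 (SE 0.136, edgeR adjusted p = 0.972). With the sort as a block both pDC comparisons passed, at 0.27 (edgeR adjusted p = 0.0146) and 0.28 (edgeR adjusted p = 0.013). Irf3 also passed against cDC1 with scaling by library size only (0.37, edgeR adjusted p = 0.034) and against cDC2 without the third sort (0.21, edgeR adjusted p = 0.0458). Between pDC and cDC2, the fit with the sort as a block raised the Irf genes called from 4 to 7 of 8. It raised the calls over all genes there from 6328 to 7663 of 13819.

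**Figure D3:**
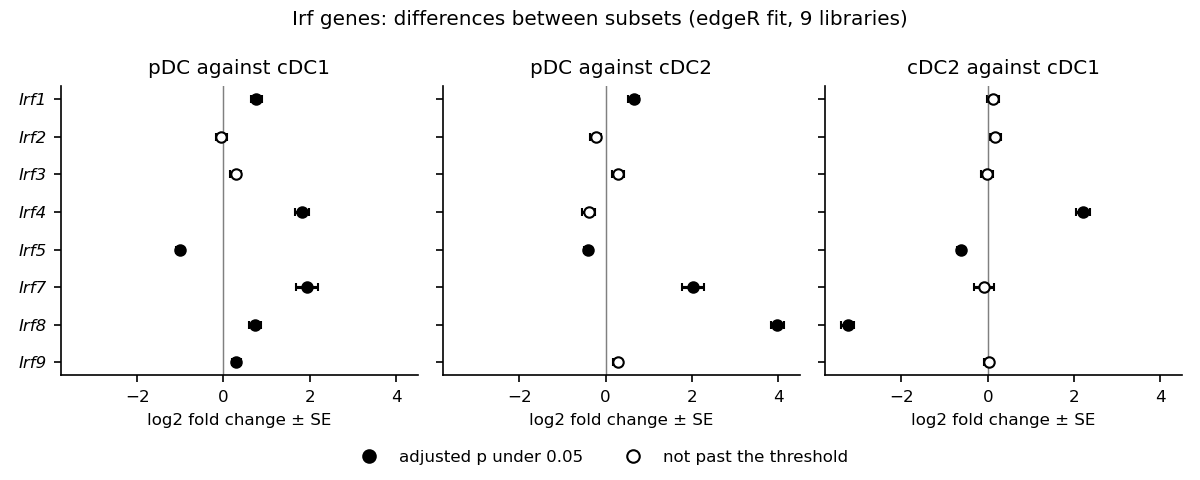
Log2 fold change ± SE of each Irf gene in the 3 comparisons, from the edgeR fit of 9 libraries; filled points passed an adjusted p of 0.05 and open points did not. Irf8 spans from -3.25 in cDC2 against cDC1 to 3.98 in pDC against cDC2, and Irf2 and Irf3 are open in all 3.

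Scaled by length the family differed in its total as well as in its make-up. The 8 genes summed to 952 ± 65.7 CPM per kilobase of exons (RPKM) in pDC, 647 ± 48 in cDC1 and 283 ± 22.8 in cDC2, and without Irf8 to 350 ± 28.4, 285 ± 16.8 and 245 ± 16.2. Irf8 made up 63.2% ± 0.839 of the sum in pDC, 56% ± 0.701 in cDC1 and 13.4% ± 1.42 in cDC2. In cDC2, Irf5 held the first place, with 36.2% ± 1.39 against 24.1% ± 0.236 in cDC1 and 8.16% ± 0.445 in pDC, although its own level per length was higher in cDC1 (156 ± 11.3 RPKM) than in cDC2 (102 ± 4.89 RPKM). Irf7 came second in pDC with 14.5% ± 1.5, and Irf4 held 5.03% ± 0.477 in cDC2, 1.14% ± 0.0548 in pDC and 0.48% ± 0.136 in cDC1, the smallest mean share in each. Among the 13683 tested genes with a length, Irf8 lay in the top 0.767% by level per length in pDC, 1.18% in cDC1 and 10.6% in cDC2, and Irf4 in the top 25.1% in cDC2, 31.7% in pDC and 57.9% in cDC1. The shares depend on the length taken for each gene: with the principal mRNA in place of all annotated exons, Irf8 made up 70.2% in pDC, 65.9% in cDC1 and 18.6% in cDC2, and Irf5 26.3% in cDC2, while Irf4 held 2.9% in cDC2, 0.525% in pDC and 0.235% in cDC1.

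**Figure D4:**
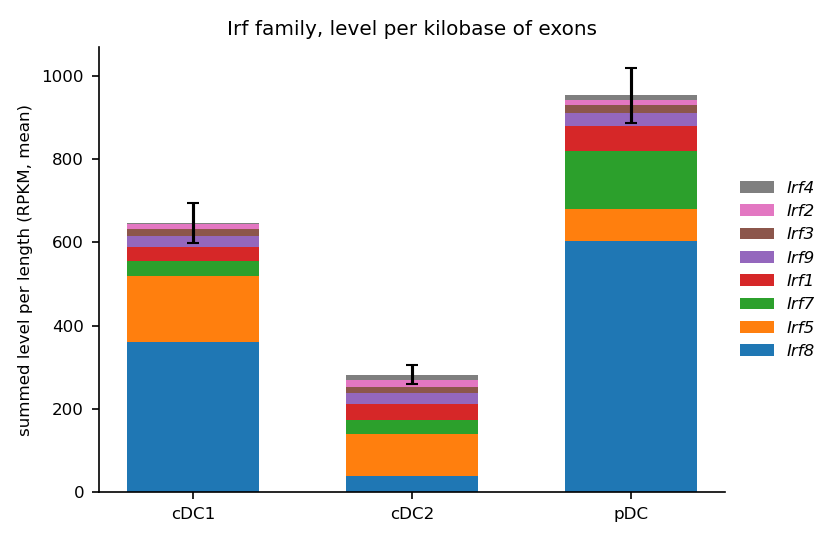
Mean level per length (RPKM over all annotated exons, linear axis from 0) of the 8 Irf genes stacked for each subset, with the SD of the summed level over 3 libraries. The pDC bar reaches 952, the cDC1 bar 647 and the cDC2 bar 283 RPKM, and the Irf8 segment is 602, 362 and 38.2 RPKM.

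The genes that lead to Irf activation were described as a list of 23: sensors, adaptors and kinases that act before Irf3, Irf5 and Irf7. Between pDC and cDC1, 8 were higher in pDC, 6 lower and 9 did not pass (median log2 fold change 0.13, against 0.02 over all genes tested). Between pDC and cDC2 the numbers were 9, 8 and 6 (median -0.10 against -0.01), and between cDC2 and cDC1 9, 2 and 12 (median 0.38 against 0.03). The share of the list that passed was 60.9%, 73.9% and 47.8% in these comparisons, beside 48.6%, 45.8% and 24.4% of all genes tested. The endosomal receptors Tlr7 and Tlr9 were higher in pDC than in both cDC subsets. Tlr7, a receptor for single-stranded RNA, stood at 384, 382 and 563 CPM in pDC, 71.1, 70.3 and 105 in cDC2 and 7.5, 4 and 8.06 in cDC1. That is 68.4-fold over cDC1 (edgeR adjusted p = 4.76e-07) and 5.39-fold over cDC2 (edgeR adjusted p = 6.27e-05), with no overlap. Tlr9, the receptor for CpG DNA, was 3.04-fold higher in pDC than in cDC1 (edgeR adjusted p = 2.02e-05) and 2.47-fold higher than in cDC2 (edgeR adjusted p = 8.91e-05). The lysosomal transporter Slc15a4 and its adaptor, listed as 5430427O19Rik (TASL), which recruits Irf5, went in the direction opposite to Irf5. Slc15a4 stood at 228 ± 16.9 CPM in pDC, 157 ± 28.1 in cDC2 and 51.4 ± 4.4 in cDC1, and 5430427O19Rik at 41.2 ± 2.14, 15.5 ± 1.61 and 8.92 ± 3.25. Both passed in all 3 comparisons, with edgeR adjusted p between 1.87e-06 and 0.0279. Several signalling genes downstream of the receptors did not follow them, though Azi2 and Ikbke of the list were higher in pDC than in both cDC subsets. Irak4, a kinase recruited by MyD88, was lower in pDC, at 40.6 ± 4.97 CPM against 60.1 ± 6.46 in cDC1 (edgeR adjusted p = 0.0118) and 78.4 ± 12.3 in cDC2 (edgeR adjusted p = 0.000652), and so was Chuk (IKKα), at 68.7 ± 5.32 against 130 ± 9.05 (edgeR adjusted p = 0.000126) and 116 ± 12.8 (edgeR adjusted p = 0.000498). Traf3 was lower in pDC than in cDC2 (1.9-fold, edgeR adjusted p = 0.0393) and did not pass against cDC1 (edgeR adjusted p = 0.762). Myd88, Irak1 and Traf6 passed in neither pDC comparison (edgeR adjusted p between 0.0658 and 0.939).

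Sensors that feed Irf3 were spread over the subsets. Tlr3, the receptor for double-stranded RNA, which is also one of the cDC1 markers, was mainly a cDC1 transcript (322 ± 29.5 CPM, with 31.1 ± 8.02 in cDC2 and 1.83 ± 1.16 in pDC), and its adaptor Ticam1 (TRIF) was at 51.7 ± 1.07, 30.2 ± 1.58 and 31.3 ± 1.18 CPM in the same order. The cytosolic RNA sensors were highest in cDC2. Ddx58, which encodes RIG-I, stood at 80.4, 91.9 and 110 CPM in cDC2, 5.9, 3.63 and 2.57 in cDC1 and 5.69, 6.34 and 8.78 in pDC. It was 22.8-fold higher in cDC2 than in cDC1 (edgeR adjusted p = 8.2e-06) and 13.6-fold higher than in pDC (edgeR adjusted p = 4.54e-06), and Ifih1, which encodes MDA5, was 3-fold higher in cDC2 than in each (edgeR adjusted p = 4.34e-05 against cDC1 and 1.35e-05 against pDC). The DNA sensor Mb21d1 (cGAS) was 6.67-fold lower in pDC than in cDC1 (edgeR adjusted p = 7.24e-07), while Tmem173, which encodes STING, rose from cDC1 (79.7 ± 11.1 CPM) through cDC2 (186 ± 23.6) to pDC (284 ± 26.1). The kinase Tbk1 stood at 44.4, 43.3 and 37.5 CPM on average in cDC1, cDC2 and pDC and passed in none of the comparisons (edgeR adjusted p = 0.217 for pDC over cDC1, 0.304 for pDC over cDC2 and 0.902 between the cDC subsets). Its relative Ikbke (IKKε) was low in all and highest in pDC, at 8.21 ± 1.38 CPM against 1.14 ± 0.421 in cDC2 and 0.524 ± 0.141 in cDC1.

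Partners of the Irf proteins formed a list of 22. Between pDC and cDC1, 6 were higher in pDC, 4 lower and 12 did not pass (median 0.33), between pDC and cDC2 5, 6 and 11 (median 0.18), and between cDC2 and cDC1 7, 0 and 15 (median 0.39). The share that passed was 45.5%, 50% and 31.8%, beside 48.6%, 45.8% and 24.4% of all genes. With the sort as a block, 19 passed between pDC and cDC1, where 8094 of all 13819 genes did, and 12 between cDC2 and cDC1, where 4916 did. Without the third sort 18 passed between pDC and cDC1, as did 8958 of all genes. The ETS factors that bind beside Irf4 and Irf8 went in opposite directions between pDC and cDC. Spib stood at 1401, 1307 and 1570 CPM in pDC, 165, 125 and 163 in cDC2 and 42.9, 29.9 and 43.7 in cDC1, without overlap, 36.7-fold above cDC1 (edgeR adjusted p = 6.16e-08) and 9.43-fold above cDC2 (edgeR adjusted p = 5e-07). Its relative Spi1, which encodes PU.1, was 3.79-fold lower in pDC than in cDC1 (edgeR adjusted p = 3.44e-07) and 4.95-fold lower than in cDC2 (edgeR adjusted p = 1.57e-07). Spi1 was still at 117 ± 11.4 CPM in pDC. Batf3, the AP-1 partner of Irf8 in cDC1, was present in both cDC subsets (91.4 ± 3.8 CPM in cDC1, 66.1 ± 4.93 in cDC2; 1.38-fold, edgeR adjusted p = 0.229) and at 1.5 ± 0.826 CPM in pDC. Batf3 in cDC2 was thus 1.38-fold under cDC1 where Irf8 was 9.49-fold under it. The corepressor Irf2bp2, which binds Irf2, rose from cDC1 (35.9 ± 2.42 CPM) through cDC2 (80.1 ± 3.04) to pDC (195 ± 27) and passed in all 3 comparisons (edgeR adjusted p = 3.21e-07, 1.7e-05 and 9.91e-05), while Irf2 itself passed in none. Ikzf1 (Ikaros) was 1.92-fold higher in pDC than in cDC1 (edgeR adjusted p = 8.38e-06) and 1.7-fold higher in cDC2 than in cDC1 (edgeR adjusted p = 0.000103). The AP-1 genes Jun and Junb of the list are also among the immediate-early genes. Jun, Junb and Jund were each highest in the third sort of every subset and passed in no comparison.

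Genes that interferon induces, the usual targets of Irf3, Irf7, Irf9 and Irf1, were described as a list of 24. They did not share one order of subsets. Between pDC and cDC1, 12 were higher in pDC, 5 lower and 7 did not pass (median 0.74 against 0.02 over all genes), between pDC and cDC2 4, 10 and 10 (median -0.45 against -0.01), and between cDC2 and cDC1 14, 4 and 6 (median 1.34 against 0.03). The share that passed was 70.8%, 58.3% and 75%, beside 48.6%, 45.8% and 24.4% of all genes. Of the 24, 9 passed in cDC2 over both other subsets, 4 in pDC and 3 in cDC1, which is 37.5%, 16.7% and 12.5% of the list beside 6.53%, 17.2% and 7.14% of all genes tested. The 9 were Ifit1, Ifit2, Ifit3, Oas1a, Oas2, Oas3, Rtp4, Xaf1 and Gbp2. Ifit3 stood at 53.9, 56.8 and 56.1 CPM in cDC2, 2.91, 1.88 and 2.57 in cDC1 and 4.57, 3.9 and 7.31 in pDC, 22.6-fold above cDC1 (edgeR adjusted p = 4.38e-06) and 10.6-fold above pDC (edgeR adjusted p = 2.99e-06). Rtp4 showed the same order with 47.9 ± 7.64 CPM in cDC2 against 1.35 ± 0.298 (cDC1) and 2.35 ± 2 (pDC), as did Oas2 with 12.8 ± 5.11, 0.354 ± 0.111 and 0.428 ± 0.38. The 4 that passed in pDC over both were Mx2, Oasl1, Ifi44 and Trim30a. Ifi44 stood at 55.8, 61.7 and 82.2 CPM in pDC, 7.1, 8.51 and 9.14 in cDC1 and 3.57, 4.31 and 7.33 in cDC2, 8.08-fold above cDC1 (edgeR adjusted p = 1.18e-05) and 13.3-fold above cDC2 (edgeR adjusted p = 3.97e-06), with no call between the cDC subsets (edgeR adjusted p = 0.0844), and Trim30a at 461 ± 66.7, 308 ± 37.1 and 165 ± 25.5 CPM. The MHC class I processing genes Psmb8, Psmb9 and Tap1, known targets of Irf1, were highest in cDC1, where Irf1 was 1.7-fold under pDC: Tap1 fell from 717 ± 73 CPM (cDC1) to 410 ± 66.2 (cDC2) and 377 ± 27.7 (pDC), 1.9-fold lower in pDC than in cDC1 (edgeR adjusted p = 0.000253).

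**Figure D5:**
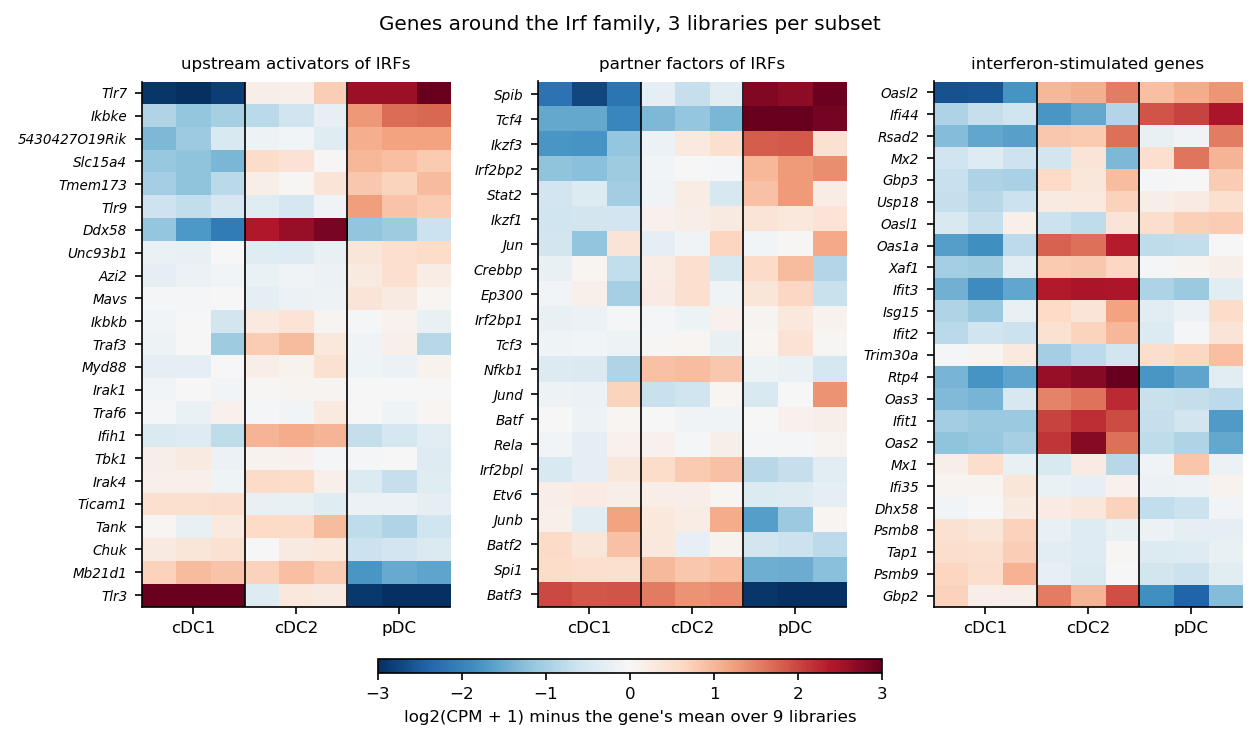
Each row is a gene of the 3 lists around the Irf family, with 1 partner gene not shown, and each column a library (3 per subset, in order of replicate number); colour gives log2(CPM + 1) minus the gene's mean over the 9 libraries, with values beyond 3 drawn at 3, and rows are sorted by pDC minus cDC1. Ddx58, Ifit3 and Rtp4 are red in the cDC2 columns alone, and Tlr7, Spib and Tcf4 are red in pDC.

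The genes whose pattern over the 9 libraries lay nearest to each Irf gene were found by the root mean square difference of centred log2(CPM + 1) among 8842 genes with a mean of at least 10 CPM, and the 2 nearest are named. For Irf8 these were P2ry14, a receptor for UDP-glucose, and Mpeg1, which encodes perforin-2, at distances of 0.169 and 0.228. Mpeg1 stood at 9405 ± 674 CPM in pDC, 6616 ± 148 in cDC1 and 841 ± 158 in cDC2. Irf4 was nearest to Gbp8 (0.167) and Galnt6 (0.178), Irf7 to Fam110a (0.123) and Rbm15b (0.179), and Irf5 to Impa2 (0.049) and Ctdsp2 (0.079). Irf1 was nearest to Unc13d (0.079) and Kdm4b (0.081), and Irf9 to Erlec1 (0.067) and Uri1 (0.068). The nearest to Irf2 were Adam17 (0.044) and Ppil2 (0.072), and to Irf3 D16Ertd472e (0.035) and Rbck1 (0.054). Small distances are easier to reach for the flat members, and the libraries share the sorts, so these values describe likeness alone.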

How the data were processed

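RNA-seq counts of 9 libraries (3 each of cDC1, cDC2 and pDC) were analysed. The authors deposited raw read counts per gene, with no normalization; the submitters' processing notes name STAR, SAMtools, featureCounts, MultiQC and the build mm10, without versions, and the annotation, strand setting and handling of multiply mapped reads are not given in the sources used here. All columns were used. Genes were kept by filterByExpr (minimum count 10), scaled by TMM and fitted in edgeR 4.0.16 (R 4.3.3) with the subset as the only term; the paper names Degust and no block. Quasi-likelihood contrasts were adjusted by Benjamini-Hochberg over 13819 genes (threshold 0.05). Depth was 15806597 to 32453789 counts. The edgeR p-values measure the spread between pools of mice. The sort is not a term of the main fit, so this spread includes differences between sorts. RPKM used the summed exons of GENCODE M21 on GRCm38; 37607 of 39179 genes (96%) have a length. Promoters are RefSeq GRCm38.p6.

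Same-numbered libraries carry the same date code in the labels, which is the source of the pairing; their deviations from the subset means of log2(CPM + 1) correlated by 0.266 to 0.543 in all 9 pairs, against -0.472 to 0.17 in 18 pairs of other numbers. The members, gene lists and tests were chosen with earlier results of these data known. The rule for named genes was every member reported, any gene of the lists and the 2 nearest genes of each member; 1 Irf gene the rule finds and the values of some listed genes are not reported here. Alternatives were the replicate block, DESeq2 1.42.0, limma-voom (limma 3.58.1), library size only, upper quartile, median-of-ratios factors, no filter, a minimum of 10 counts per library, 6-library fits, an adjusted p under 0.01, a log2 fold change of at least 1, other gene lengths, each library left out, and, added after seeing the data, leaving out the third sort, the principal mRNA length and permutation within sorts. The fit was tested on simulated counts first. Figures used matplotlib with Python.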

Additional observations from a re-analysis of the deposited data

How the results depend on the processing

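All calls of Irf1, Irf4, Irf5, Irf7 and Irf8 reported as passed kept their direction and their side of the threshold in each of the 19 alternatives; the replicate block changed no call of the Irf genes other than those given for Irf3, Irf4 and Irf9. The call of Irf9 between pDC and cDC1 was lost in 14 of 19 (0.23 to 0.32 in these, adjusted p 0.0527 to 0.167; the cause was not tested). The Irf8 to Irf4 ratio gave an exact permutation p of 0.0278 with exchange within sorts (replicate block). Values near 0 changed sign with library size only, whose median shift over all genes was 0.11 between cDC2 and cDC1: Irf2 to 0.04 (pDC against cDC1), Irf3 to 0.10 and Irf7 to 0.02 (cDC2 against cDC1). Between cDC2 and cDC1, Irf3 became 0.01 with at least 10 counts in every library and Irf9 became -0.004 with upper quartile normalization. With single libraries left out, Irf2 ranged from -0.21 to 0.04 between pDC and cDC1, and between cDC2 and cDC1 Irf3 from -0.10 to 0.03, Irf7 from -0.39 to 0.10 and Irf9 from -0.05 to 0.08. Irf2 passed between pDC and cDC2 without cDC1 replicate 3 (-0.24, adjusted p 0.05 after rounding). Under the replicate block, the paired fit, 7 Irf genes passed between pDC and cDC2, and 19 and 12 partner factors between pDC and cDC1 and between cDC2 and cDC1; without the third sort 18 partner factors passed between pDC and cDC1 (the cause was not tested). With a log2 fold change of at least 1, fewer by construction, 3 and 2 Irf genes passed between pDC and cDC1 or cDC2, 8 and 9 upstream activators in the same comparisons and 7 between cDC2 and cDC1, 11 interferon-stimulated genes between pDC and cDC1 and 4 partner factors between cDC2 and cDC1. An adjusted p under 0.01 left 7 upstream activators between cDC2 and cDC1. At the threshold of 0.05, leaving out single libraries gave 7 to 11 there, the lowest without cDC1 replicate 1. In that fit the calls over all genes fell too, from 3370 to 2544. Under the stricter rules of fold change or adjusted p, calls over all genes were not counted. The counts under those rules therefore say nothing of the lists against other genes. Genes under about 1 CPM, such as Ikbke in cDC1, rest on few reads, fewest in the third sort.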
